A study of Mus musculus with 46 samples.

Results

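Bmp4, Neu4, Gpr17, Enpp6, Bcas1, Itpr2 and Sirt2 are genes of the newly formed oligodendrocyte stage, the step between the dividing progenitor and the cell that wraps axons. The 7 genes were taken by symbol from the 52636 genes of the deposited table of the left hippocampus, and all 7 were among the 13244 genes that passed the minimum on expression and were tested. The libraries came from 46 pups of the Balb/cByj strain at postnatal day 17, with 1 library per pup. LB pups (limited bedding, 9 females and 7 males) were raised from birth with little corncob bedding and no nesting material, and UPS pups (unpredictable postnatal stress, 7 females and 8 males) had a different stress, whose handling is not described in the sources used here. CTL pups (control, 9 females and 6 males) had ample bedding and a nestlet. LB and CTL litters were culled and randomised at birth. By the study's account the LB and CTL pups came from a few litters, and the litters of UPS pups are not described in the sources used here. No label says which pups were littermates. All pups were treated as independent, so the p-values take the spread between pups as error. They make no allowance for pups that share a litter and are too small if littermates are alike. Rearing was compared as LB against CTL, UPS against CTL and LB against UPS, and each gene was also set against Mog, a late myelin gene, across the pups of each rearing.

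Oligodendrocytes arise from progenitors that carry the PDGF receptor Pdgfra. On leaving the cell cycle they pass through a short premyelinating stage with its own set of transcripts, and those that contact an axon go on to make myelin proteins such as Mog, while many of the others die. The hippocampus at this age holds all 3 stages at once, since myelination there is just beginning. In a bulk library, fewer cells of a type and less RNA per cell cannot be told apart. Each value is TPM, a share of the transcripts of a library that corrects for transcript length, so levels of different genes can be compared, but TPM keeps no read depth.

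The libraries held RNA of the labelled tissue, with all 6 neuronal and all 6 astrocyte markers and all 12 progenitor markers above 0 in every library. Xist ran between 112.9 and 206.3 TPM in pups labelled female and reached at most 0.0319 TPM in pups labelled male. One library stood apart. In female UPS pup 2, 814 tested genes lay over 1 log2 unit below the median of the other UPS pups, against 40 to 116 genes in the other 45 libraries, each set against the other pups of its rearing, and its bearing on the UPS values is given with them. For female UPS pup 1 the title says UPS and a second label says LB, and the title was followed. The females numbered 9 of LB and of CTL carry a second, earlier number in the table that no male has, and the study counts the sexes of LB and CTL differently from the labels. The labels were followed, and Xist is that of a female in both. Males and females differed in many genes within each rearing (23.0% of genes tested in LB, 15.8% in UPS and 26.0% in CTL), and whether that is sex or the way the libraries were made cannot be told apart.

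The 7 genes covered a wide range of levels. In CTL hippocampus Sirt2 averaged 161 ± 18.4 TPM (SD, n = 15), above 91.8% of the genes tested, followed by Bcas1 at 119.6 ± 34.0 TPM and Gpr17 at 110.1 ± 8.69 TPM, which did not differ beyond their spread. Enpp6 averaged 28.6 ± 4.82 TPM. Neu4 at 13.5 ± 1.60 TPM and Itpr2 at 13.4 ± 1.44 TPM did not differ beyond their spread either, and Bmp4 was lowest at 6.92 ± 0.80 TPM, above 15.4% of the genes tested. Sirt2 is a deacetylase of tubulin that is abundant in myelin and Bcas1 marks cells that begin to myelinate. Gpr17 is a receptor that appears as progenitors commit and is lost before myelin forms. Enpp6 is a phosphodiesterase acting on choline phospholipid products, Neu4 a sialidase, Itpr2 a calcium release channel of the endoplasmic reticulum that astrocytes also use, and Bmp4 a secreted ligand that holds progenitors back from maturing. The genes also differed in their spread between CTL pups. The coefficient of variation among CTL pups was 28.4% for Bcas1 and 16.9% for Enpp6, against 7.89% for Gpr17 and a median of 11.8% over the genes tested.

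Several of the genes share their position with another transcript in GENCODE M21 (GRCm38). Gpr17 (chr18:31942997-31949636, minus strand) lies with all of its 6640 bases inside Lims2 on the other strand, and Lims2 averaged 16.3 TPM in LB, 14.1 TPM in UPS and 16.9 TPM in CTL. Sirt2 (chr7:28766735-28788661, plus strand) overlaps Nfkbib by 778 bases on the other strand, and Nfkbib averaged 29.8 TPM in LB, 31.1 TPM in UPS and 30.5 TPM in CTL. Whether counting used the strand is not given in the sources used here, so reads in such stretches may have been shared. Antisense or predicted transcripts that overlap Bmp4 (chr14:46383520-46390669), Enpp6 (chr8:46986887-47096762), Bcas1 (chr2:170346991-170427845) and Itpr2 (chr6:146108299-146502223) averaged at most 0.403 TPM in any rearing. Neu4 (chr1:94020451-94028334) overlaps no other annotated gene.

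LB hippocampus had less of 3 of the 7 transcripts. Enpp6, Neu4 and Sirt2 fell in LB pups, by 22.7%, 13.9% and 13.9% of the CTL mean, while Bmp4, Gpr17, Bcas1 and Itpr2 did not pass the test, and none of the 7 rose. Over all genes tested, 7.54% were called in either direction, with 3.84% lower and 3.71% higher in LB by the same test, a limma fit of log2(TPM + 1) with Benjamini-Hochberg adjusted p under 0.05 over 13244 genes. The members were chosen with earlier results of these data known, so their count is a description.

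Enpp6 spanned 13.6 to 29.7 TPM in LB pups with a median of 20.9 TPM, and 21.8 to 37.5 TPM in CTL pups with a median of 27.8 TPM. The 2 ranges overlapped, and 13 of 16 LB pups lay below the mean of CTL pups of their sex. The difference was -0.38 on the log2(TPM + 1) scale (95% interval -0.58 to -0.17, limma adjusted p = 0.019). It lost the call with no filter on low TPM (limma adjusted p = 0.051) and when all 46 libraries shared 1 fit (limma adjusted p = 0.064).

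Neu4 spanned 9.19 to 13.1 TPM in LB pups with a median of 11.8 TPM, and 10.998 to 15.7 TPM in CTL pups with a median of 13.0 TPM. Here 15 of 16 LB pups lay below the CTL mean of their sex, the exception being a female. The difference was -0.22 (95% interval -0.30 to -0.13, limma adjusted p = 0.0024).

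Sirt2 spanned 118.1 to 162.7 TPM in LB pups with a median of 139.6 TPM, and 128 to 202 TPM in CTL pups with a median of 164.6 TPM. Again 15 of 16 LB pups lay below the CTL mean of their sex. The difference was -0.23 (95% interval -0.32 to -0.14, limma adjusted p = 0.0034). Leaving out any 1 of the 31 libraries ended none of the 3 calls, with limma adjusted p up to 0.044 for Enpp6, 0.0064 for Neu4 and 0.0089 for Sirt2.

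**Figure D1:**
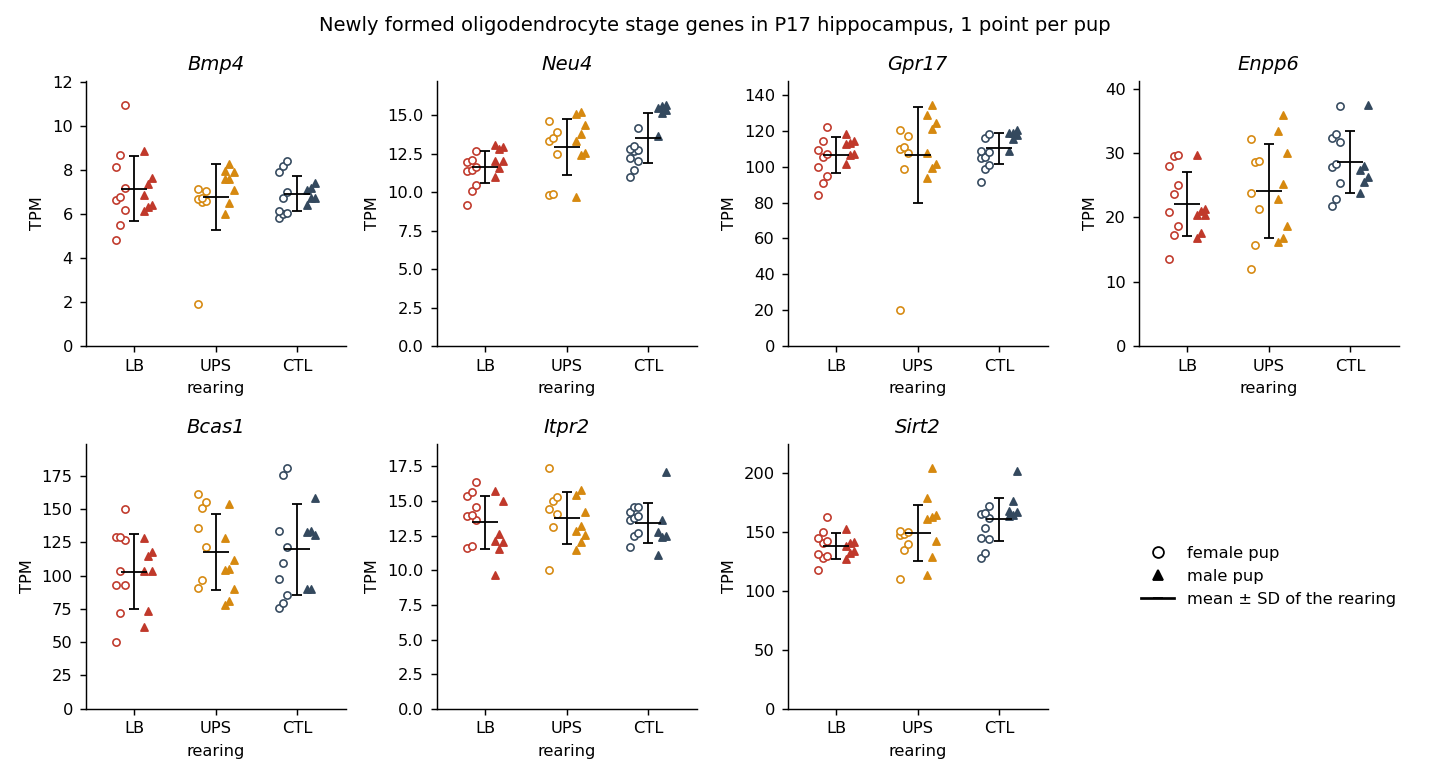
TPM of the 7 genes in each pup (vertical axes, each from 0), for LB, UPS and CTL rearing from left to right, with open circles for females, filled triangles for males, and the mean and SD of each rearing as bars. LB pups sit lower than CTL pups for Enpp6, Neu4 and Sirt2, Bcas1 is spread widely in every rearing, and 1 UPS female is far below all others for Gpr17 (19.9 TPM) and Bmp4 (1.91 TPM).

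The other 4 genes gave intervals that included 0. Bcas1 averaged 103 ± 27.8 TPM in LB pups and 119.6 ± 34.0 TPM in CTL pups (SD, n = 16 and 15), a difference of -0.23 that was as large as that of Sirt2 but came with a wider interval (-0.53 to 0.08, limma adjusted p = 0.37). Gpr17 spanned 84.3 to 121.9 TPM in LB pups and 91.6 to 120.5 TPM in CTL pups, with nearly the same medians of 107.1 and 108.7 TPM, and differed by -0.06 (-0.15 to 0.03, limma adjusted p = 0.42). Bmp4 averaged 7.15 ± 1.48 TPM in LB pups and 6.92 ± 0.80 TPM in CTL pups, a difference of 0.03 (-0.13 to 0.18, limma adjusted p = 0.87). Itpr2 averaged 13.5 ± 1.91 TPM in LB pups and 13.4 ± 1.44 TPM in CTL pups, a difference of -0.005 (-0.13 to 0.12, limma adjusted p = 0.97). The ligand Bmp4 and the receptor Gpr17, which mark the start of the stage, did not pass the test. Neither did Bcas1, which marks cells that begin to myelinate, though its difference was as large as that of Sirt2. Whether the differences follow the order of the stages was not tested. The end point Mog had a larger difference than any of the 7. Mog averaged 37.9 ± 20.8 TPM in LB pups and 77.2 ± 21.7 TPM in CTL pups, a difference of -1.20 (limma adjusted p = 0.0034), and Pdgfra averaged 59.6 ± 5.56 TPM in LB pups and 58.5 ± 5.12 TPM in CTL pups (limma adjusted p = 0.75).

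**Figure D2:**
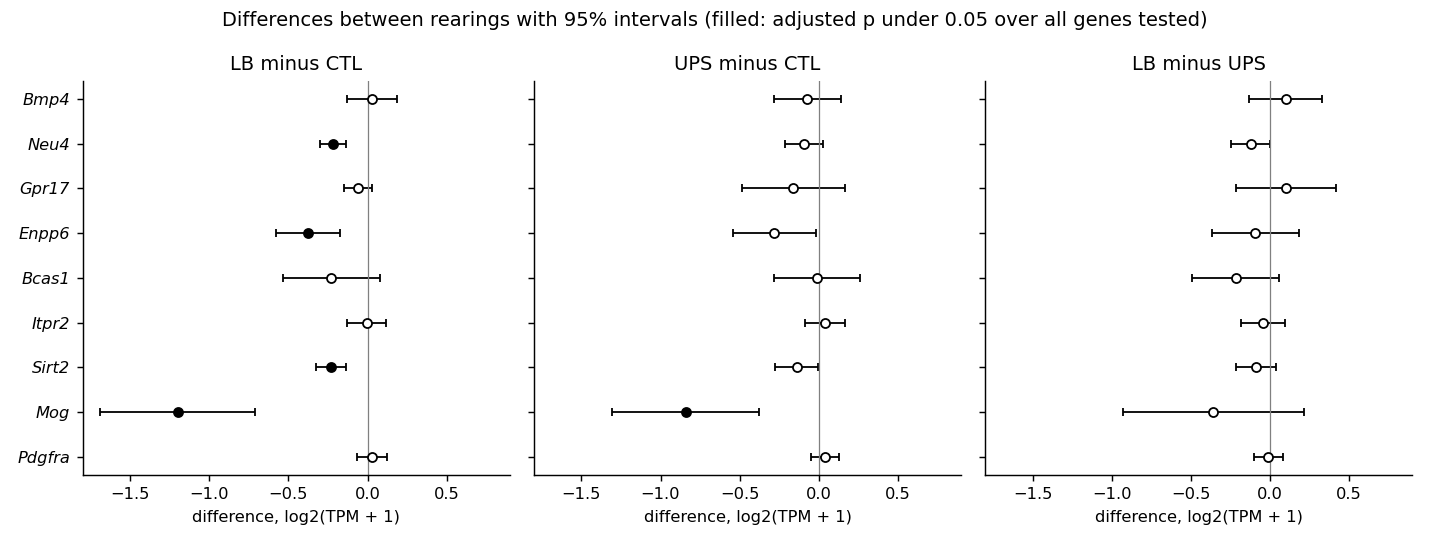
Differences in log2(TPM + 1) (horizontal axes) with 95% intervals for the 7 genes, Mog and Pdgfra (rows), in LB minus CTL, UPS minus CTL and LB minus UPS, filled where the limma adjusted p over all genes tested was under 0.05. In LB minus CTL the filled points are Neu4 at -0.22, Enpp6 at -0.38, Sirt2 at -0.23 and Mog at -1.20, in UPS minus CTL only Mog at -0.84 is filled, and in LB minus UPS none is.

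The promoters of the 3 genes are shown because these were the members called lower in LB. Whether the 3 share a regulator was not tested. Of the 7 genes, 5 had a promoter in the RefSeq table (GRCm38.p6), and the 250 bases before the RefSeq transcript start are printed for Neu4 (chr1:94020243-94020492, plus strand), Enpp6 (chr8:46986637-46986886, plus strand) and Sirt2 (chr7:28766502-28766751, plus strand). Capitals mark matches, on either strand, to CTGGNAC (the MYRF motif), ACAAAG or ACAAT (SOX motifs), and CAGCTG or CAGATG (E-boxes of the kind OLIG2 binds).
Neu4: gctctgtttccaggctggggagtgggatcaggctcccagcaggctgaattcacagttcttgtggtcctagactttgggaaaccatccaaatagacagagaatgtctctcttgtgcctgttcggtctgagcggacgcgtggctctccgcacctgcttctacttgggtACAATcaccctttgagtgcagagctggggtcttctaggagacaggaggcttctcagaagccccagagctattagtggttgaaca
Enpp6: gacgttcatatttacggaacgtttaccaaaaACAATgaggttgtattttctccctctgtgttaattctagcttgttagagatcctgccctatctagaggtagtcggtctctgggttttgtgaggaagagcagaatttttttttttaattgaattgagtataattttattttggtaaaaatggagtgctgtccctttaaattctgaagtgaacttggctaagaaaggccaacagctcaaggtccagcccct
Sirt2: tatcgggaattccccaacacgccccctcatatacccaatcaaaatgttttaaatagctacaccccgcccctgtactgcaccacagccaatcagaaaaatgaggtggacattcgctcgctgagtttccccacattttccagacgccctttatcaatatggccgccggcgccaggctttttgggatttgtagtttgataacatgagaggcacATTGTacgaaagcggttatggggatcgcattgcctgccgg
Each of the 3 held 1 match, to ACAAT, at 84 bases before the start in Neu4, 219 in Enpp6 and 40 in Sirt2, where it reads ATTGT on the printed strand. Of 27025 promoters of this length, 28.3% held ACAAT and 61.5% held at least 1 of the 5 motifs, so such matches are common. Among the 2 members with a promoter that did not pass the test, Bmp4 held 1 match to CTGGNAC, a motif found in 4311 of the 27025 promoters, and Itpr2 held none. A match is a run of letters and not evidence that a factor binds there.

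Genes of the same stage outside the 7 moved in both directions. A list of 20 other genes of the committed and newly formed stage had 18 that were tested, of which 2 were lower and 1 higher in LB, with a median difference of -0.03 against 0.01 over all genes tested. Nfasc, an adhesion molecule that neurons also make, fell by 0.33 on the log2 scale (limma adjusted p = 0.0038) and the membrane protein Prom1 by 0.29 (limma adjusted p = 0.022), while the small GTPase Rras2 rose by 0.24 (limma adjusted p = 0.019). The progenitor genes stood near 0, with 1 of 12 higher in LB (Ptprz1, a phosphatase receptor, 0.19, limma adjusted p = 0.046), none lower, and a median of 0.04. The next smallest p-values of that list were those of Serpine2 (0.09, limma adjusted p = 0.16) and Cacng4 (0.11, limma adjusted p = 0.26). Among mature oligodendrocyte and myelin genes, 20 of 22 tested were lower in LB, with a median of -0.93. Among the smallest p-values there were those of Ppp1r14a (-0.91) and the connexin Gjb1 (-1.04), with limma adjusted p of 0.0018 and 0.003. The median of the 7 members themselves was -0.22, between the progenitor and the myelin lists. These lists, too, were drawn up with earlier results known.

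Few markers of other cell types passed the test. No neuronal, microglial, or endothelial and mural marker out of 6 each was called in LB against CTL, nor any of 6 meningeal or 4 tested choroid plexus markers. All 6 meningeal markers were nevertheless above 0 in LB minus CTL, with a median of 0.21 and the smallest limma adjusted p, 0.052, for Bgn, and so were all 4 choroid plexus markers (median 0.31). Of 6 astrocyte markers the water channel Aqp4 was higher (0.20, limma adjusted p = 0.044), and of 5 blood genes Hbb-bt, a globin, was higher (0.43, limma adjusted p = 0.031), in a list whose 5 genes were all above 0 (median 0.26). The medians of the meningeal and blood lists were about as far from 0 as that of the members. The summed level of the 6 neuronal markers ran from 4458 to 5286 TPM in LB pups and from 4638 to 5569 TPM in CTL pups, and that of the 5 blood genes from 278 to 615 TPM in LB pups and from 236 to 416 TPM in CTL pups. The summed level of the choroid plexus markers ran from 8.62 to 2583 TPM in LB pups and from 10.4 to 675 TPM in CTL pups. That of the 6 meningeal markers ran from 123.5 to 182.9 TPM in LB pups and from 109.8 to 159.1 TPM in CTL pups. The part of these cell types in the results was not tested.

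The members were also set against other stages of the lineage within the same library. Relative to Pdgfra, the progenitor receptor, Enpp6 was lower in LB by 0.40 (limma adjusted p = 0.016), Sirt2 by 0.26 (limma adjusted p = 0.016) and Neu4 by 0.24 (limma adjusted p = 0.018), where 1.15% of all genes were called lower, and the other 4 members did not pass. With rearing alone in the model, without sex, Enpp6 was the 1 member still called. In UPS against CTL, where 2.66% of genes were lower relative to Pdgfra, no member was called. Relative to Mog, all 7 members were higher in LB, and so were 99.7% of all genes, so that ratio says no more than that Mog itself fell. With Mog added to the model as a covariate, none of the 7 was called and no gene of 13243 passed. The remaining differences were -0.13 for Enpp6, -0.12 for Neu4 and -0.09 for Sirt2.

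The size of the LB difference was looked at in each sex. Neu4 spanned 11.03 to 13.1 TPM in LB males and 13.7 to 15.7 TPM in CTL males, and Sirt2 spanned 127.4 to 153 TPM in LB males and 163.8 to 202 TPM in CTL males. For both genes LB and CTL males did not overlap, as held for 71 of 13244 genes (0.536%) in this direction. Among females, where 4 genes (0.0302%) were lower without overlap, the ranges overlapped for both genes, at 9.19 to 12.7 TPM in LB and 10.998 to 14.2 TPM in CTL for Neu4, and 118.1 to 162.7 TPM in LB and 128 to 172.7 TPM in CTL for Sirt2.

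With the difference taken in 1 sex, from the fit that held both sexes, none of the 7 genes was called in LB against CTL. In males the difference was -0.29 for Neu4 and -0.33 for Sirt2 (limma adjusted p = 0.065 for each), and in females it was -0.14 for Neu4 and -0.13 for Sirt2 (limma adjusted p = 0.20 and 0.30). Enpp6 differed by -0.41 in males and -0.34 in females (limma adjusted p = 0.22 and 0.21). Over all genes, 0 were called in males and 3 (0.0227%) in females, with 1821 (13.7%) and 1918 (14.5%) at an unadjusted p under 0.05. The difference between the sexes in the LB effect did not pass the test for any of the 7. Male minus female, it was -0.19 for Sirt2 (95% interval -0.38 to -0.01) and -0.15 for Neu4 (-0.31 to 0.01), each with a limma adjusted p of 1.00. No gene of 13244 was called for such a difference, with 293 (2.21%) at an unadjusted p under 0.05.

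Among CTL pups, 2 of the 7 genes were called between the sexes, a share near the 26.0% of all genes, so this is no result about the members. Neu4 was higher in CTL males than in CTL females by 0.27 (limma adjusted p = 0.0033) and Gpr17 by 0.14 (limma adjusted p = 0.049), and Sirt2 gave 0.19 (limma adjusted p = 0.051). Gpr17 averaged 116.6 ± 4.21 TPM in 6 CTL males and 105.8 ± 8.31 TPM in 9 CTL females. The CTL female numbered 9 had 14.2 TPM of Neu4 and 118.3 TPM of Gpr17, the highest of the CTL females, and lay within the range of CTL males for both. No member was called between the sexes in LB or UPS pups. With the females numbered 9 counted as males, Enpp6, Neu4 and Sirt2 were still called in LB against CTL over both sexes (limma adjusted p = 0.011, 0.0020 and 0.0024), and likewise with them left out (limma adjusted p = 0.024, 0.0030 and 0.0062).

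UPS, compared with the same CTL pups, changed none of the 7 transcripts by the test, where 4.44% of all genes were lower and 5.59% higher. Enpp6 spanned 12.02 to 35.9 TPM in UPS pups with a median of 23.8 TPM, against 21.8 to 37.5 TPM in CTL pups, and 9 of 15 UPS pups lay below the CTL mean of their sex. Its difference was -0.28 (95% interval -0.54 to -0.02, limma adjusted p = 0.15). Sirt2 spanned 110.4 to 204.8 TPM in UPS pups with a median of 148.4 TPM, and 13 of 15 pups lay below the CTL mean of their sex. Its difference was -0.14 (-0.27 to -0.004, limma adjusted p = 0.17). With the difference taken in 1 sex, from the fit that held both sexes, no member was called either. Of all genes, 1.64% were called in females and 0.0378% in males. The other 5 gave pooled differences between -0.16 for Gpr17 and 0.04 for Itpr2, with limma adjusted p between 0.30 and 0.96. Mog, with 45.9 ± 22.4 TPM in UPS pups, was lower by 0.84 than in CTL pups (limma adjusted p = 0.019), and 17 of 22 mature genes were lower. Of the 18 other genes of the stage, 3 were higher in UPS and none lower, namely Snx30, Rras2 and Fyn, by 0.14, 0.25 and 0.11 on the log2 scale (limma adjusted p = 0.0069, 0.0073 and 0.016). Of the 5 blood genes, 3 were higher in UPS than in CTL pups.

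LB and UPS pups were not told apart by any of the 7 genes. Neu4 came nearest, at 11.7 ± 1.06 TPM in LB pups and 12.9 ± 1.83 TPM in UPS pups, a difference of -0.12 (95% interval -0.24 to 0.0002, limma adjusted p = 0.39), with 15 of 16 LB pups below the UPS mean of their sex. Bcas1 differed by -0.22 (-0.49 to 0.06, limma adjusted p = 0.51), and Enpp6 by -0.09 (-0.37 to 0.18, limma adjusted p = 0.81). Of all genes, 6 (0.0453%) were called. Without female UPS pup 2 the differences were -0.11 for Neu4, -0.26 for Bcas1, -0.16 for Enpp6 and -0.08 for Sirt2, and that of Gpr17 was -0.07 in place of 0.10, with none called. LB minus CTL and UPS minus CTL share the CTL pups, so a similar pattern of the 2 is not independent evidence.

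Female UPS pup 2 decided the UPS values of Gpr17 and Bmp4. This pup had 19.9 TPM of Gpr17, 18.0% of the median of the other 14 UPS pups, which ran from 93.4 to 134.3 TPM. It had 1.91 TPM of Bmp4, 27.1% of the median of the others, which ran from 5.99 to 8.26 TPM. Enpp6 at 12.02 TPM and Itpr2 at 10.03 TPM were the lowest of the UPS pups as well. Sirt2 at 148.4 TPM, Neu4 at 13.9 TPM and Pdgfra at 64.7 TPM were at 99.7%, 104.7% and 108.5% of the median of the others. The members split in this library. Ordered by their distance below the other UPS pups, Gpr17 took place 35 and Bmp4 place 273 of the 13244 genes, behind Y-linked genes among others. Lims2, which overlaps Gpr17, had 6.69 TPM in this pup, against a median of 13.5 TPM in the others. Without the pup the UPS difference from CTL was 0.01 for Gpr17 and 0.03 for Bmp4, in place of -0.16 and -0.07, the difference for Enpp6 was -0.21 (limma adjusted p = 0.21), and still none of the 7 was called. Those of Sirt2 and Neu4 were -0.15 and -0.11 (limma adjusted p = 0.14 and 0.21), and those of Itpr2 and Bcas1 were 0.08 and 0.03.

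**Figure D3:**
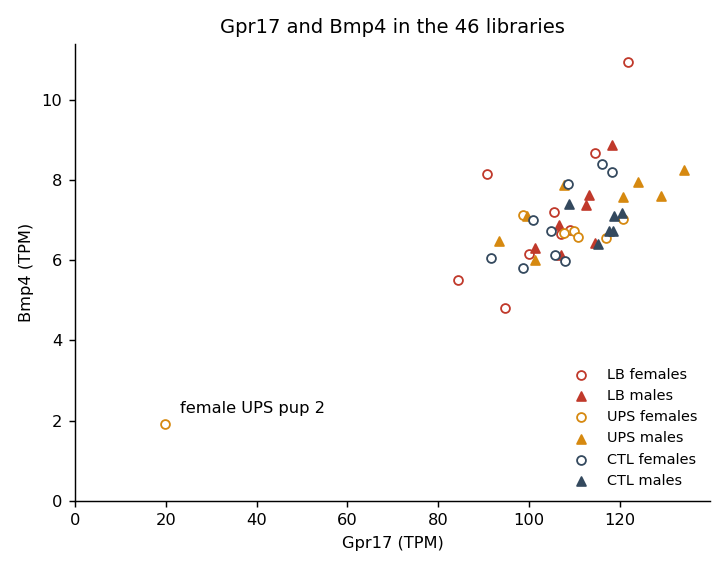
Gpr17 (horizontal axis, TPM) against Bmp4 (vertical axis, TPM) in the 46 libraries, with color for rearing, open circles for females and filled triangles for males. The labelled point, female UPS pup 2, lies at 19.9 and 1.91 TPM, while in the other 45 libraries Gpr17 was at least 84.3 TPM and Bmp4 at least 4.81 TPM.

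The level of each gene was then set against Mog in the same pup, within each rearing, to ask which of them vary with the amount of myelin transcript. Over 7 genes and 3 rearings this gave 21 relations. Pearson's r and Spearman's rho are given with two-sided permutation p-values, and the adjusted p comes from the limma slope on Mog, with sex in the model, over 13243 genes. Mog values of UPS pups left a gap between 28.6 and 51.4 TPM, with 6 pups below and 9 above.

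Enpp6 followed Mog in UPS and in CTL pups. In UPS pups r was 0.84 (n = 15, permutation p = 0.00012) and rho 0.83 (permutation p = 0.00022), and the slope was 0.50 ± 0.08 (SE) log2 units of Enpp6 per log2 unit of Mog (limma adjusted p = 0.0036). In CTL pups r was 0.81 (n = 15, permutation p = 0.00016) and rho 0.80 (permutation p = 0.00046), with a slope of 0.40 ± 0.08 (SE, limma adjusted p = 0.032). Without the 2 pups farthest from the median of Mog, r was 0.86 in UPS and 0.78 in CTL, and it was positive within each sex of both rearings (0.87 and 0.93 in UPS females and males, 0.79 and 0.86 in CTL females and males, exact p up to 0.033). Few genes had a higher r with Mog than Enpp6, 0.26% in UPS and 0.32% in CTL. Below the gap in Mog r was 0.03 among 6 UPS pups, and above it 0.57 among 9 (exact p = 0.93 and 0.11), so much of the UPS relation lies between the 2 sets. The CTL slope lost its call in 7 of 15 fits that left out 1 pup, with limma adjusted p up to 0.19 without CTL female 2, which had the lowest Mog of the CTL pups, but the slope was 0.50 in that fit and 0.35 to 0.42 in the other 6. Positive slopes were called for 0.415% of genes in UPS and 0.476% in CTL.

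In LB pups Enpp6 was more loosely related to Mog. There r was 0.42 (n = 16, permutation p = 0.10) and rho 0.30 (permutation p = 0.26), the slope was 0.15 ± 0.09 (SE, limma adjusted p = 0.30), and without the 2 pups farthest from the median of Mog r was 0.02. The slope in LB differed from that in UPS by -0.35 ± 0.11 (SE, limma adjusted p = 0.42) and from that in CTL by -0.25 ± 0.15 (SE, limma adjusted p = 1.00). No gene was called for a difference of slopes in either pair, with 1220 (9.21%) and 572 (4.32%) of 13243 genes at an unadjusted p under 0.05, so a difference between rearings was not shown.

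**Figure D4:**
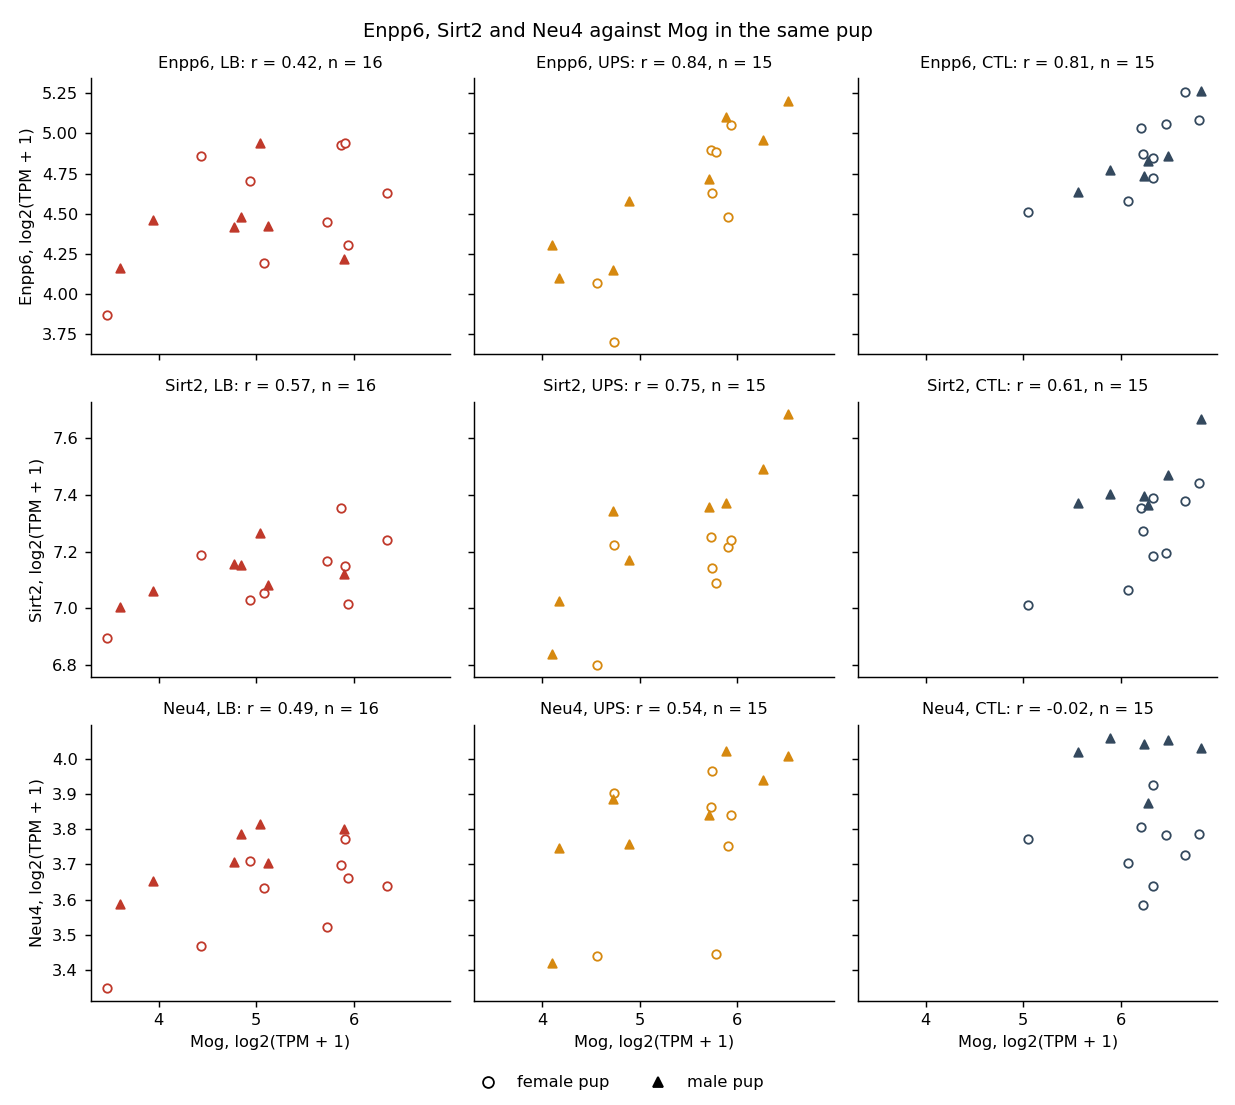
Enpp6, Sirt2 and Neu4 (rows, vertical axes, log2(TPM + 1)) against Mog (horizontal axes, log2(TPM + 1)) in LB, UPS and CTL pups (columns), 1 point per pup, with open circles for females and filled triangles for males. Enpp6 climbs with Mog in UPS (r = 0.84) and CTL (r = 0.81) and is scattered in LB (r = 0.42). Neu4 in CTL is mostly higher in males than in females, with some overlap, and has no slope (r = -0.02).

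Sirt2, a gene of myelin as well as of this stage, was also higher in pups with more Mog. In LB pups r was 0.57 (n = 16, permutation p = 0.022) and rho 0.35 (permutation p = 0.18), and r was 0.28 without the 2 pups farthest from the median of Mog, so the LB relation rests on those pups. In UPS pups r was 0.75 (n = 15, permutation p = 0.0011) and rho 0.66 (permutation p = 0.0092), with a slope of 0.24 ± 0.04 (SE, limma adjusted p = 0.017) and r = 0.64 without the 2 farthest pups. In CTL pups r was 0.61 (n = 15, permutation p = 0.018) and rho 0.54 (permutation p = 0.043), and 0.77 once the means of the sexes were removed, with a slope of 0.22 ± 0.05 (SE, limma adjusted p = 0.10). Leaving out the 2 farthest CTL pups gave r = 0.52 (permutation p = 0.065). The UPS slope lost its call in 5 of 15 fits that left out 1 pup, the highest limma adjusted p being 0.14 without UPS male 1, but the slope was 0.21 to 0.24 in those fits. The slope in LB pups, 0.08 ± 0.03 (SE, limma adjusted p = 0.095), differed from that in UPS by -0.16 ± 0.05 (SE, limma adjusted p = 0.42).

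Neu4 had a called slope on Mog in LB pups alone, and no difference of its slopes between rearings passed the test. In LB pups its slope on Mog was 0.10 ± 0.03 (SE, limma adjusted p = 0.036), in a rearing where 2.46% of genes had a positive and 8.35% a negative slope that was called. There r was 0.49 over all pups (n = 16, permutation p = 0.053) and rho 0.33 (permutation p = 0.21), and r was 0.77 with the means of the sexes removed, 0.75 in females and 0.85 in males (exact p = 0.019 and 0.017). Without the 2 pups farthest from the median of Mog r was 0.16, so the pooled r rests on them. The slope lost its call in 8 of 16 fits that left out 1 pup, but it was 0.10 to 0.11 in 7 of them. It was 0.08 (limma adjusted p = 0.24) without LB female 9, whose Mog (10.1 TPM), Neu4 (9.19 TPM), Enpp6 (13.6 TPM), Bcas1 (50.5 TPM) and Sirt2 (118.1 TPM) were the lowest of the LB pups. In UPS pups r was 0.54 (n = 15, permutation p = 0.039) and rho 0.58 (permutation p = 0.029), with a slope of 0.15 ± 0.06 (SE, limma adjusted p = 0.82). In CTL pups r was -0.02 (n = 15, permutation p = 0.94) and rho 0.03 (permutation p = 0.93), with r near 0 in each sex. The slope in LB differed from that in CTL by 0.10 ± 0.08 (SE, limma adjusted p = 1.00) and that in UPS from that in CTL by 0.15 ± 0.08 (SE, limma adjusted p = 0.96).

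The remaining genes had no slope on Mog that was called in any rearing. Bcas1 gave r of 0.29 in LB, 0.49 in UPS and 0.49 in CTL (permutation p = 0.27, 0.064 and 0.061), Bmp4 gave -0.07, 0.30 and 0.10, and Gpr17 gave 0.18, 0.35 and 0.12. With female UPS pup 2 left out, r of Gpr17 in UPS pups was 0.55 (n = 14, permutation p = 0.043). Itpr2 gave r of -0.04 in LB, 0.58 in UPS and -0.21 in CTL (permutation p = 0.90, 0.023 and 0.44), and its r within the 2 sets of UPS pups below and above the gap in Mog was -0.12 and 0.01. Spearman's rho of these 4 genes ran from -0.18 to 0.65. The highest were those of Itpr2 and Gpr17 in UPS pups, at 0.65 and 0.625 (permutation p = 0.011 and 0.015). Without the 2 pups farthest from the median of Mog, rho of Gpr17 in UPS was 0.82 (permutation p = 0.0010). With the means of the sexes removed it was 0.41 (permutation p = 0.13). Below and above the gap in Mog it was -0.31 and 0.60 (exact p = 0.56 and 0.097). The progenitor receptor Pdgfra, for comparison, gave r of -0.04 in LB, 0.47 in UPS and -0.17 in CTL. Without female UPS pup 2 the r in UPS pups was 0.87 for Enpp6, 0.77 for Sirt2, 0.60 for Neu4, 0.56 for Itpr2, 0.46 for Bcas1, 0.28 for Bmp4 and 0.56 for Pdgfra, and the called slopes remained those of Enpp6 (0.45) and Sirt2 (0.27).

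The 7 genes did not vary as 1 block among pups. After removal of the 6 means of rearing and sex, r over the 46 libraries was highest between Bmp4 and Gpr17 (0.84), Neu4 and Sirt2 (0.66) and Enpp6 and Sirt2 (0.66), and lowest between Neu4 and Gpr17 (0.03). These are descriptions over libraries that share the scale of TPM. Female UPS pup 2 set several of them, since without it r was 0.62 between Bmp4 and Gpr17, 0.59 between Neu4 and Gpr17, and 0.76 between Enpp6 and Sirt2. The lowest r without this pup were those of Bcas1 with Bmp4 (-0.11) and with Gpr17 (0.04).

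The genes whose pattern was nearest to each member were found in the same way, over the 46 libraries. For Enpp6 they were Zfp488, Plxnb3 and Cnksr3 (r = 0.82, 0.81 and 0.81), and for Sirt2 Parvb, Myrf and Sox10 (0.82, 0.81 and 0.79), where Myrf and Sox10 are transcription factors that oligodendrocytes need. For Neu4 they were Sirt2, Fnta and Tmc6 (0.66, 0.65 and 0.64), and for Bcas1 Efhd1, Xpo4 and Paip2 (0.59, 0.56 and 0.56). For Itpr2 they were Slc4a4, a bicarbonate cotransporter, Lpp and Ptprz1 (0.87, 0.86 and 0.80). For Bmp4 they were Tril, Gpr17 and Mmp15 (0.87, 0.84 and 0.84), and for Gpr17 AI464131, Lcat and Kctd21 (0.93, 0.93 and 0.93). Without female UPS pup 2, the nearest to Gpr17 were none of these but Tmem163, Olig2 and Slc22a23 (0.74, 0.71 and 0.68). To Bmp4 they were then Tril, Bcl6b and Aif1l (0.67, 0.64 and 0.62), and to Neu4 Olig1, Gpt2 and Sirt2 (0.69, 0.68 and 0.66). Nearest to Sirt2 were then Plxnb3, Sox10 and Parvb (0.87, 0.82 and 0.82), with Myrf no longer among the 3. Slc4a4 and Lpp stayed nearest to Itpr2 (0.85 and 0.84).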

How the data were processed

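RNA of the left hippocampus of 46 pups at postnatal day 17 was sequenced from mRNA libraries, 1 per pup. Per the labels and the study's methods, the authors trimmed reads, used HISAT2 against mm10 and StringTie for quantification, and deposited TPM for 52636 genes. For tool versions and the strand setting of counting, nothing is given in the sources used here. Another 3 deposited tables hold the fold changes and p-values of the authors' DESeq2 tests and were not used. TPM keeps no read depth, so the depth behind each value is unknown and no counting interval is given.

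Groups came from the labels. Genes needed a TPM mean of 3 or more in 1 of the rearings, and Cav2, which has a text cell, was left out, leaving 13244. The scale tested was log2(TPM + 1), with limma 3.58.1 (R 4.3.3), a mean for each rearing and sex, a variance trend, the libraries of the 2 rearings compared, and Benjamini-Hochberg adjustment over all genes at 0.05. The rearing difference is the average of the male and the female one. Differences are on that scale and understate changes of low genes. Slopes on Mog had sex in the model. Correlations used 100000 permutations, or exact ones for n under 10 (Python 3.11.15, scipy 1.17.1). The fits were tested on simulated data with independent noise for each gene and library. Those data held no litters, so they check the fitting and not whether pups were independent. Positions are from GENCODE M21 (GRCm38), in which 99.6% of gene identifiers were found, and promoters from RefSeq.

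The 7 genes, the lists and the rules for naming others were chosen with earlier results of these data known. Named genes are the 7 members, Mog, Pdgfra, the 3 smallest p-values of each oligodendrocyte list in LB against CTL (for UPS against CTL printed only for the list of the same stage), and the 3 genes nearest to each member with predicted genes left out. Of the genes so named, 1 is not reported here. Other markers that passed, the genes that overlap a member, and female UPS pup 2 as a library were singled out after their values were seen. Pseudocount, filter, scaling, model terms, weights, a replicate block and single libraries were varied.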

Additional observations from a re-analysis of the deposited data

Results flagged for a closer look

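Of 48 sets of pups of 1 gene, rearing and sex, 7 had a pup far from the nearest other one relative to the whole range of the set (Dixon's 95% limit), where chance gives about 1 in 20. In female UPS pup 2 this held for Gpr17 at 19.9 TPM, where the next lowest UPS female had 98.8 TPM, and for Bmp4 at 1.91 TPM, where the next had 6.54 TPM. CTL male 3 was far above the other CTL males for Enpp6 at 37.5 TPM (next 28.0 TPM) and for Sirt2 at 202.4 TPM (next 177 TPM), and the LB differences without this pup had the highest limma adjusted p of the fits that left out 1 library, at 0.044 for Enpp6 and 0.0089 for Sirt2. CTL male 4 was far below the other CTL males for Neu4 at 13.7 TPM (next 15.2 TPM). LB male 1 had 29.7 TPM of Enpp6, where the next highest LB male had 21.3 TPM. UPS female 6 had 110.4 TPM of Sirt2, where the next lowest UPS female had 135 TPM.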

How the results depend on the processing

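The calls of Enpp6, Neu4 and Sirt2 in LB against CTL held in all fits that left out 1 library (3 members called in each, of 677 to 1581 genes, 677 without LB male 8 and 1581 without LB male 5), and the members called in UPS against CTL and in LB against UPS were 0 in all such fits (of 913 to 2169 and of 4 to 22 genes, 913 without CTL male 6, and 2169 and 22 without female UPS pup 2). Members with a called slope on Mog were 1 to 2 in UPS, 0 to 1 in LB and 0 to 1 in CTL, of 42 to 84, 410 to 1564 and 30 to 83 genes, with 410 without LB female 9 and 30 without CTL female 2.

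The number of genes called in LB against CTL was 999, and 650 with no filter on low TPM, 579 with rearing alone in the model, 1676 with library weights, 0 with Mog as covariate, 3 within females and 0 within males, with 0 members called in each of the last 3. In UPS against CTL it was 1329, and 254 with rearing alone, 2626 with weights, 13 with Mog as covariate, 2169 without female UPS pup 2, 217 within females and 5 within males. In LB against UPS it was 6, and 14 without mitochondrial genes, 1 with rearing alone, 24 with all 46 libraries in 1 fit, 98 with weights, 22 without female UPS pup 2, 2 within females and 0 within males.

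Relative to Pdgfra, rearing alone left 1 member of 3 called in LB against CTL, 10 genes of 438 in UPS against CTL and 0 of 3 in LB against UPS. UPS against CTL relative to Pdgfra had 207 genes with a replicate block and 262 without the pups numbered 9, and LB against UPS relative to Mog had 7 of 11 without those pups. For slopes on Mog, 2 members were called in CTL with TPM and no log and 2 with median-of-ratios scaling, in place of 1, and 49 genes in place of 76 with no sex term. In LB, 0 members were called with no log, 0 with no sex term, 0 without the pups numbered 9 (410 genes in place of 1432) and 2 with median-of-ratios scaling, in place of 1. In UPS, 1 member was called with no sex term, in place of 2. The correlation of Itpr2 with Mog among UPS pups was -0.12 below the gap in Mog, a split chosen after seeing the data. The cause of these shifts was not tested.

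The labels do not say that a replicate number marks a shared litter or day. The median correlation of deviations was 0.03 over 82 pairs of the same number in other rearings (17.1% over 0.1). It was 0.06 over 20 pairs of the same number and rearing (35% over 0.1). Over 776 pairs of other numbers it was -0.01 (9.92% over 0.1). Pairs of the same number thus passed 0.1 more often than other pairs. Whether they share a litter or day was not tested, and the main fits did not pair them. With the number as a fixed replicate block, 967 genes and 3 members were called in LB against CTL, 1077 genes and 0 members in UPS against CTL, and 4 genes and 0 members in LB against UPS. With the number within a rearing as a random replicate block these were 726 and 3, 1217 and 0, and 6 and 0.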
